A study of Trichoderma cf. simile with 24 samples.

Results

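Between phenetole and control mycelium of the fungus Trichoderma cf. simile strain WF8, 174 of 12486 gene models differed the same way at both days. Of these, 75 did so without a large change in the control between the days. In the phenetole cultures 1 day and 3 days after the addition, 41 of the 75 had more RNA and 34 had less. A gene model was taken as a member of this set when the base 2 logarithm of its mean FPKM plus 1 differed between phenetole and control cultures by at least 1 at each day, with the same sign, while the control itself moved by less than 1 between the days. FPKM are fragments counted per length of gene and size of library, so levels of different genes can be set side by side. Because the set was chosen from the phenetole and control libraries, every difference between these 2 culture types is given below as a description and supports no result. The largest members were 3 gene models with consecutive numbers, Trisim1_006099, Trisim1_006100 and Trisim1_006101, which were near 0 in the control and between 59.9 and 985 mean FPKM with phenetole at day 1.

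Phenetole, or ethoxybenzene, is an aromatic ring joined to an ethyl group through an ether oxygen, and serves as a small model of the alkyl aryl ether bonds of lignite, a soft brown coal. Filamentous fungi are known to attack such ethers with oxygenases, among them cytochrome P450 enzymes, which remove the alkyl group and leave a phenol. Phenols can then be hydroxylated, opened at the ring, conjugated or exported, and volatile aromatic compounds also act on membranes. Fungal genes for the steps of 1 pathway often lie next to each other and are switched on together. The deposited tables give the gene models numbers and no names, so no member is assigned a function here.

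The series holds 24 mycelium libraries, 3 flasks for each of 4 culture types at day 1 and at day 3. All cultures had first been shaken for 60 h without light at 29 °C and 180 rpm in 100 mL of Sabouraud maltose broth, and then received phenetole at 200 mg/L, 4-phenoxybenzoic acid (4-PBA, a diphenyl ether with a carboxylic acid group) at 10 mg/L, 9,10-dibutoxyanthracene (9-10-DBO, an anthracene carrying butoxy groups) at 5 mg/L, or none of these in the control. Phenetole was added neat, whereas the other compounds came dissolved in dichloromethane, which at the stock concentration of 0.2 g/L made up 5% of the culture volume for 4-PBA and 2.5% for 9-10-DBO. Copper, manganese and veratryl alcohol are named as further additions, and the sources used here do not say whether control flasks got them or the solvent. A strain isolated from decaying wood near a coal mine was used throughout, so all values describe 1 isolate. Flask numbers recur at both days, the labels do not say whether the flasks were separate cultures, and p-values therefore measure the spread between these samples only. In such bulk samples fewer cells of a type and less RNA per cell cannot be told apart.

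Libraries held 16767477 to 19842379 counts, and the correlations of libraries of a group over loci lay between 0.939 and 0.990. The deposited FPKM were scaled with a factor per library that ran from 0.618 to 1.32 of the total counts. For phenetole at day 1 the 3 factors lay between 0.618 and 0.75. On the deposited scale the median of 8889 gene models with a mean of at least 1 FPKM differed from the control by -0.07 at day 1 and by 0.01 at day 3. Scaled to total counts instead, a choice made after seeing the data, these medians were -0.49 and 0.09, and 73 gene models met the rule, 29 higher and 44 lower, 56 of them shared with the 75. Markers of spores or of other cell states could not be scored, because no ID is paired with a name.

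The differences of the 41 higher members had a median of 1.63 at day 1, with a range of 1.04 to 9.49, and of 1.34 at day 3, with a range of 1.01 to 8.04. Those of the 34 lower members had a median of -1.72 at day 1, from -5.49 to -1.03, and of -1.32 at day 3, from -3.55 to -1.003. Most members sat close to the edge of the rule: the smaller of the 2 differences was under 1.5 for 30 higher and 26 lower members and at least 2 for 8 and 7. Among the higher members the day 1 difference was the larger for 30 and the day 3 difference for 11, while the lower members divided into 16 and 18. The 3 members just inside the rule were Trisim1_011416 with 1.42 and 1.01, Trisim1_006020 with 1.06 and 1.01 and Trisim1_001876 with -2.19 and -1.003 at days 1 and 3. Just outside lay Trisim1_006904 with 1.25 and 0.998, Trisim1_011299 with 1.495 and 0.997 and Trisim1_007585 with 3.65 and 0.988.

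The same-sign group was the minority of the gene models that differed between phenetole and control at both days. In all, 390 gene models differed by at least 1 at each day, 174 with the same sign and 216 with opposite signs, and 99 of the 174 were left out because the control itself changed with time. All 75 members passed the filter on low counts that left 10842 loci for testing. The flasks of phenetole and control did not overlap for 37 of 41 higher and 25 of 34 lower members at day 1, where 26.6% of all gene models with a value did not overlap, and for 33 and 26 at day 3, where the figure was 23.3%; 30 higher and 21 lower members were apart at both days. These counts come from the libraries that chose the members, as do the next, so their excess over all loci follows from the rule and nothing is read from it. In edgeR's quasi-likelihood test 38 higher members were called at day 1 beside 12.3% of loci and 22 at day 3 beside 1.52%. Of the lower members 24 were called at day 1 beside 15.2% of loci and 14 at day 3 beside 1.9%. At both days 22 higher and 13 lower members were called, beside 0.415% and 0.323% of loci. The day 3 count of 36 members in both directions moved to 16 without control flask 2, to 23 without phenetole flask 2, to 15 without phenetole flask 3 and to 5 when only the 2 groups were fitted.

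**Figure D1:**
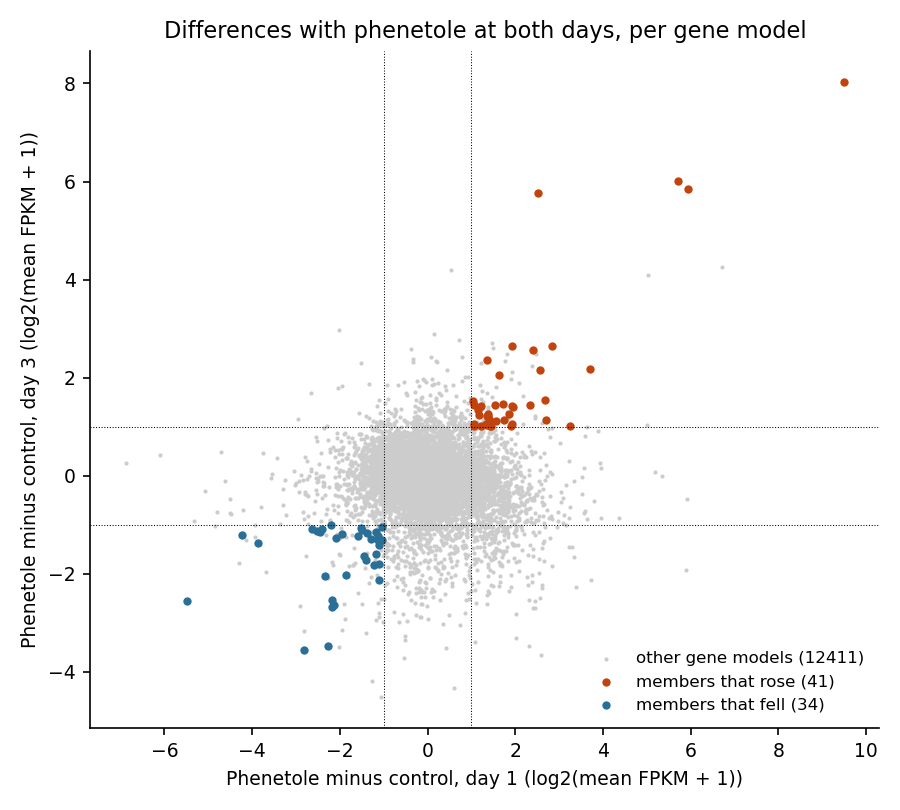
Difference between phenetole and control at day 1 (horizontal axis) and day 3 (vertical axis) in log2(mean FPKM + 1), 1 point per gene model, with the 41 higher and 34 lower members in colour and dotted lines at 1 and -1. A point at 9.49 and 8.04 is Trisim1_006100, most members lie close to the dotted lines, and the grey points beyond the lines at upper left and lower right are gene models shifted in opposite directions.

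Trisim1_006100 was at 0.254, 0.871 and 0 FPKM in the control flasks of day 1 and at 905, 1103 and 945 with phenetole. At day 3 it was at 0.329, 2.01 and 0.356 FPKM in the control and at 355, 534 and 604 with phenetole. All phenetole flasks thus lay far above all control flasks at both days, and the day 3 values with phenetole were below those of day 1 in every flask. The gene model of 384 bp differed from the control by 9.49 and 8.04 on the log2(FPKM + 1) scale, the largest difference of the set at both days.

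Its neighbours in number behaved alike. Trisim1_006099, of 462 bp, was at 0, 0 and 0.334 FPKM in the control and 57.7, 69.3 and 74.8 with phenetole at day 1, and at 0 counts in all 3 control flasks against 38, 46 and 85.7 FPKM at day 3. Trisim1_006101, of 4518 bp, was at 0.238, 0.123 and 0.136 FPKM in the control and 25.8, 76.6 and 77.5 with phenetole at day 1. At day 3 it stood at 0.205, 0.81 and 0.53 FPKM in the control and 74.2, 55 and 163 with phenetole, a ratio of means of 189. In none of the 3 genes did a control flask reach a phenetole flask. A count of 0 over the 3 flasks allows up to 3 counts, so a low control level does not show that a gene was silent.

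The other cultures divided over the same 3 genes. With 4-PBA, Trisim1_006100 was at 149, 272 and 468 FPKM at day 1 and 5.98, 229.7 and 147 at day 3, while with 9-10-DBO it was at 1.6, 2.9 and 2.66 and 1.47, 0 and 0.179. Trisim1_006099 was at 7.81, 12.9 and 48.9 FPKM with 4-PBA at day 1 and 0.172, 24.3 and 15.6 at day 3, with 1 count in all among the 3 flasks with 9-10-DBO at day 1 and 0 at day 3. Trisim1_006101 was at 35.4, 40.05 and 72.7 and 4.68, 25.5 and 40.4 FPKM with 4-PBA and at 0.224, 0.464 and 0.321 and 0.025, 0.0568 and 0.0912 with 9-10-DBO. Every 4-PBA flask lay above every 9-10-DBO flask at both days for each of the 3 genes, and flask 1 of 4-PBA at day 3 was the lowest of its group in each.

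The gene models that flank the 3 did not share the shift at both days. Trisim1_006098 differed from the control by 1.51 at day 1 and -0.001 at day 3, and Trisim1_006102 by -0.09 and 0.33 with a control change of 1.93 between the days. Across the set, 15 of the 75 members, 20%, had another member under the next number, in 7 groups, where 1.19% of all 12486 gene models, 148, were next to a member and 0.601% were members. The sources used here do not say whether numbers follow the order along a chromosome. Of the higher members 12 had such a neighbour and of the lower members 3.

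The other 6 groups were pairs. Trisim1_000290 and Trisim1_000291 differed from the control by 2.52 and 1.35 at day 1 and by 5.77 and 2.35 at day 3, so both were shifted more at day 3. Trisim1_002582 and Trisim1_002583 differed by 1.92 and 2.67 at day 1 and by 1.42 and 1.55 at day 3, with Trisim1_002582 at a mean of 81.2 ± 43 FPKM (SD, n = 3) with phenetole at day 1 and Trisim1_002583 at 9.2 ± 5.09. The pair Trisim1_000750 and Trisim1_000751 differed by 1.38 and 1.15 at day 1 and by 1.21 and 1.34 at day 3. Higher as a pair, too, were Trisim1_011416 and Trisim1_011417, with 1.42 and 3.25 at day 1 and 1.01 and 1.01 at day 3. Both lower members with adjoining numbers, Trisim1_008453 and Trisim1_008454, differed by -1.40 and -1.96 at day 1 and by -1.72 and -1.19 at day 3. The next gene model, Trisim1_008455, differed by -1.29 and -0.81, and the one before, Trisim1_008452, at low levels, by -0.0004 and -0.18. Before the higher pair Trisim1_011416 and Trisim1_011417, Trisim1_011415 differed by 0.69 and -1.03. Only Trisim1_002864 and Trisim1_002865 of these 7 groups went opposite ways, with -3.88 and -1.36 for the former and 1.40 and 1.16 for the latter. The sources used here do not say whether the authors counted by strand.

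Among the other higher members, some were abundant and moved by a moderate factor. Trisim1_011201, of 597 bp, was at 168, 203 and 293 FPKM in the control and 1206, 1714 and 628 with phenetole at day 1, and at 171, 186 and 206 and 527, 1418 and 1386 at day 3, ratios of means of 5.34 and 5.93. Trisim1_006832 was at 50.5, 36 and 47.9 and 143, 149.6 and 223 FPKM at day 1 and at 26, 30.0 and 36.3 and 133, 226 and 230.5 at day 3, ratios of 3.84 and 6.39. Both kept all phenetole flasks above all control flasks at each day. Trisim1_006722 was high everywhere, at 527 ± 38.3 FPKM (SD, n = 3) in the control and 1562 ± 329 with phenetole at day 1, and at 605 ± 46.3 and 1322 ± 14.5 at day 3.

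Others were low in the control and higher with phenetole. Trisim1_012515 was at 2.64, 2.6 and 5.43 FPKM in the control and 83.8, 46.9 and 43.4 with phenetole at day 1, and at 1.64, 1.3 and 5.85 and 7.1, 21.9 and 21.7 at day 3, so its day 1 ratio of means of 16.3 came down to 5.76. Trisim1_002816 was at 0.0385, 0 and 0.121 FPKM in the control and 4.86, 6.83 and 4.13 with phenetole at day 1, and at 0.63, 0.114 and 0.269 and 3.24, 3.01 and 8.55 at day 3. With 4-PBA at day 1 it stood higher still, at 8.42, 10.5 and 21.3 FPKM. Trisim1_007805 was below 0.5 FPKM in every control flask and at 6.87, 3.76 and 6.13 FPKM with phenetole at day 1 and 2.05, 0.607 and 3.27 at day 3.

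Flasks of phenetole differed widely for a few of the leading higher members. Trisim1_000290 was at 5.64, 10.4 and 0.99 FPKM with phenetole at day 1 and at 15.5, 78.7 and 169 at day 3, against 0.222, 0.127 and 0.15 and 1.34, 0.172 and 0.378 in the control. Flask 1 with 9-10-DBO at day 1 held 12 FPKM and flask 3 with 4-PBA 9.76, while the other flasks of those groups stayed under 1. Trisim1_004055 was at 9.92, 11.3 and 1.27 FPKM with phenetole at day 1 and at 0.132, 0.721 and 30.2 at day 3, where the control flasks were at 0.065, 0 and 2.36. Its day 3 difference of 2.65 therefore came from flask 3, and the groups overlapped. Trisim1_002007 was at 6.96, 7.29 and 23.1 FPKM in the control and 19.7, 88.5 and 57.4 with phenetole at day 3, where control flask 3 lay above phenetole flask 1.

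Of the lower members, Trisim1_000700, a gene model of 207 bp, led the list. It was at 354, 499 and 365 FPKM in the control and 54.4, 49.4 and 67.6 with phenetole at day 1, and at 279, 1306 and 517 and 77, 72.8 and 27.1 at day 3. Every phenetole flask lay below every control flask, with ratios of control to phenetole means of 7.1 and 11.9. Trisim1_009138 was at 138, 205 and 229 and 29.6, 51 and 35.9 FPKM at day 1 and at 92.3, 323 and 349.9 and 16, 39.5 and 10.9 at day 3, again without overlap, with ratios of 4.9 and 11.5.

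Trisim1_011025 showed how a single flask can set a value. In the control of day 1 it was at 167, 3.98 and 2.75 FPKM, and with phenetole at 0, 0.164 and 0.756. The difference of -5.49 at day 1, the largest of the lower set, rests on control flask 1, although the other 2 control flasks also lay above the phenetole flasks. At day 3 the control was at 148, 50.6 and 29.6 FPKM and phenetole at 14.8, 17.2 and 4.6.

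Several lower members had 1 low control flask. Trisim1_007564 was at 12.8, 85.2 and 107 FPKM in the control and 6.52, 20.2 and 16.3 with phenetole at day 1, where control flask 1 lay among the phenetole flasks, and at 21.9, 59.8 and 37.7 and 3.85, 8.67 and 3.65 at day 3, without overlap. Trisim1_003600 was at 1.81, 11.3 and 6.59 and 0.47, 1.02 and 0.539 FPKM at day 1 and at 11.8, 11.2 and 0.986 and 1.13, 0.222 and 0.306 at day 3, where control flask 3 lay among the phenetole flasks. Trisim1_000241 was at 13.6, 49.2 and 66.9 FPKM in the control against 7.98, 8.07 and 7.15 at day 1, and its control flasks were uneven at day 3, at 18.2, 28.2 and 125, above phenetole flasks at 15, 12.3 and 12.

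The other leading lower members were separated at both days. Trisim1_010012 was at 47.9 ± 21.1 FPKM (SD, n = 3) in the control and 10.2 ± 4.05 with phenetole at day 1, and at 28.3 ± 15.8 and 3.7 ± 3.13 at day 3. Trisim1_010167 went from 8.08 ± 2.04 in the control to 1.5 ± 0.791 with phenetole at day 1 and from 4.92 ± 3.77 to 0.451 ± 0.238 at day 3. Trisim1_011155, the longest member at 6993 bp, was at 32.6 ± 18.4 and 11.2 ± 3.42 FPKM at day 1 and at 40.4 ± 12.6 and 12.3 ± 6.04 at day 3. Trisim1_008453 was at 18, 12.7 and 13.2 FPKM in the control and 5.46, 4.09 and 5.23 with phenetole at day 1 and at 11.5, 18.5 and 10.1 and 2.94, 4.31 and 2.84 at day 3, without overlap at either day. Trisim1_003358 had a day 1 difference exceeded in the lower set by that of Trisim1_011025 alone, -4.23, from 124, 265 and 266 FPKM in the control to 8.3, 14.6 and 9.14, and a day 3 difference of -1.21.

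**Figure D2:**
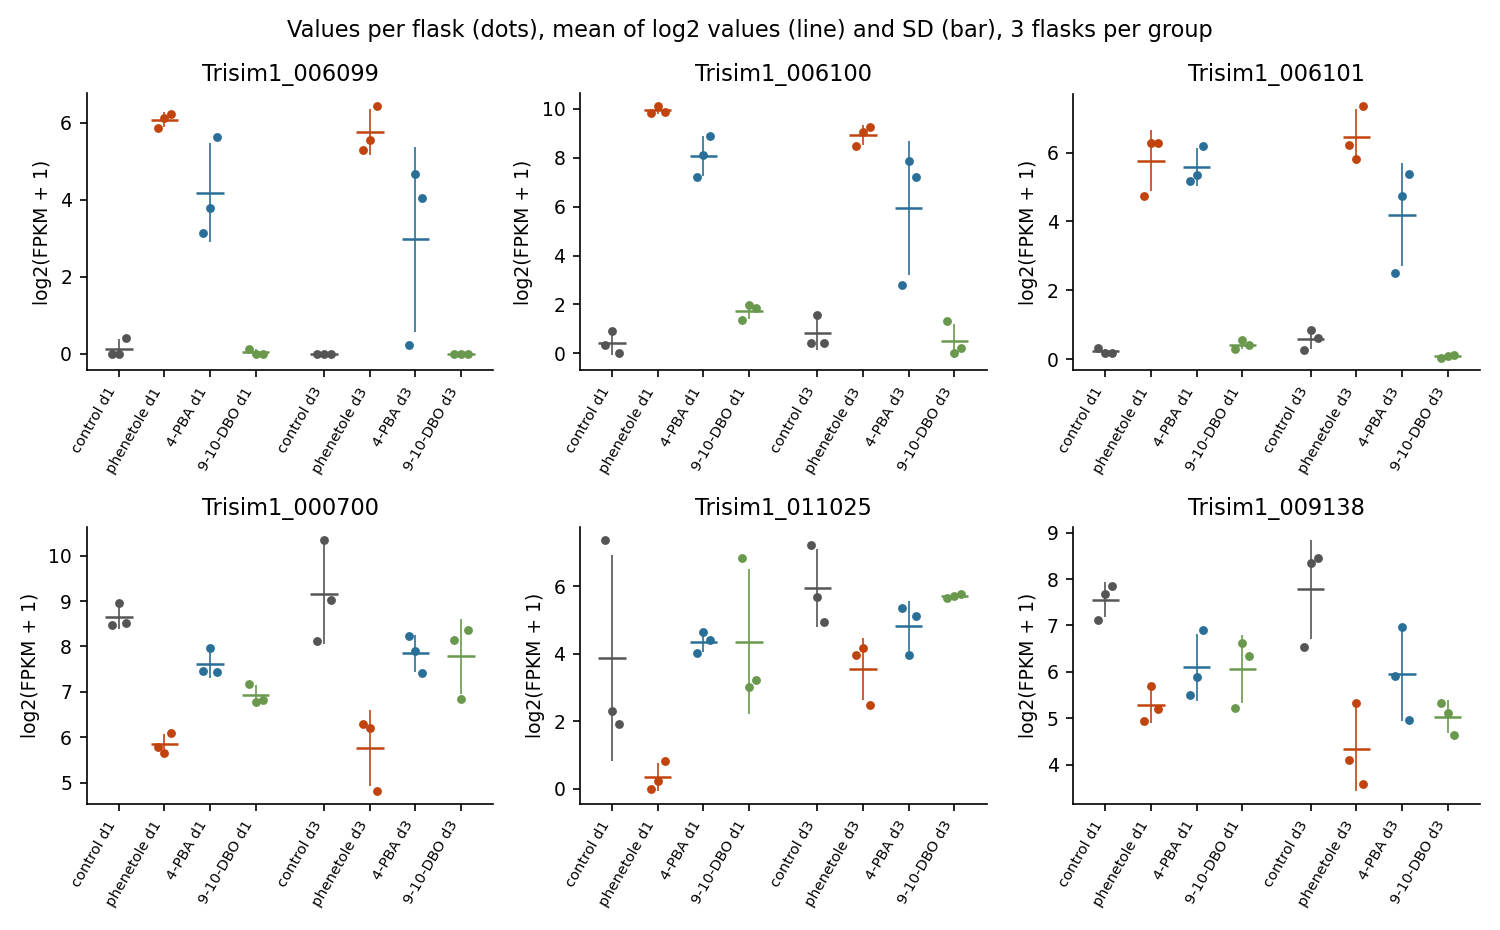
Level in log2(FPKM + 1) in each flask (dots), with the mean (line) and SD (bar) of 3 flasks per group, for Trisim1_006099, Trisim1_006100 and Trisim1_006101 (top) and for the 3 leading lower members (bottom), by culture type at day 1 (d1) and day 3 (d3). In the top row the means with phenetole and 4-PBA stand above those of the control and 9-10-DBO, and in the bottom row the mean with phenetole is the lowest of each day, with 1 high control flask for Trisim1_011025 at day 1.

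The next counts come from the libraries that chose the members, so nothing is read from how the higher and lower members differ in them. When the rule was applied again without 1 of the 12 phenetole and control libraries at a time, 20 members met it in all 12 cases, 17 higher and 3 lower. The 17 were the 3 consecutive genes, Trisim1_000290 and Trisim1_000291, Trisim1_002582 and Trisim1_002583, and Trisim1_011201, Trisim1_012515, Trisim1_002816, Trisim1_006832, Trisim1_002007, Trisim1_003895, Trisim1_007328, Trisim1_007805, Trisim1_006722 and Trisim1_006190. The 3 lower members were Trisim1_009138, Trisim1_003600 and Trisim1_008453. A further 6 higher and 11 lower members dropped out in 1 case, and 18 and 20 in more than 1. A member also dropped out when the control alone moved by 1 or more between the days. These cases therefore do not tell how many flasks a phenetole difference rests on. Trisim1_003895, which met the rule throughout, was at 68.2 ± 13 FPKM in the control and 226 ± 23.2 with phenetole at day 1 and at 108 ± 19.8 and 299.9 ± 84.8 at day 3 (SD, n = 3).

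**Figure D3:**
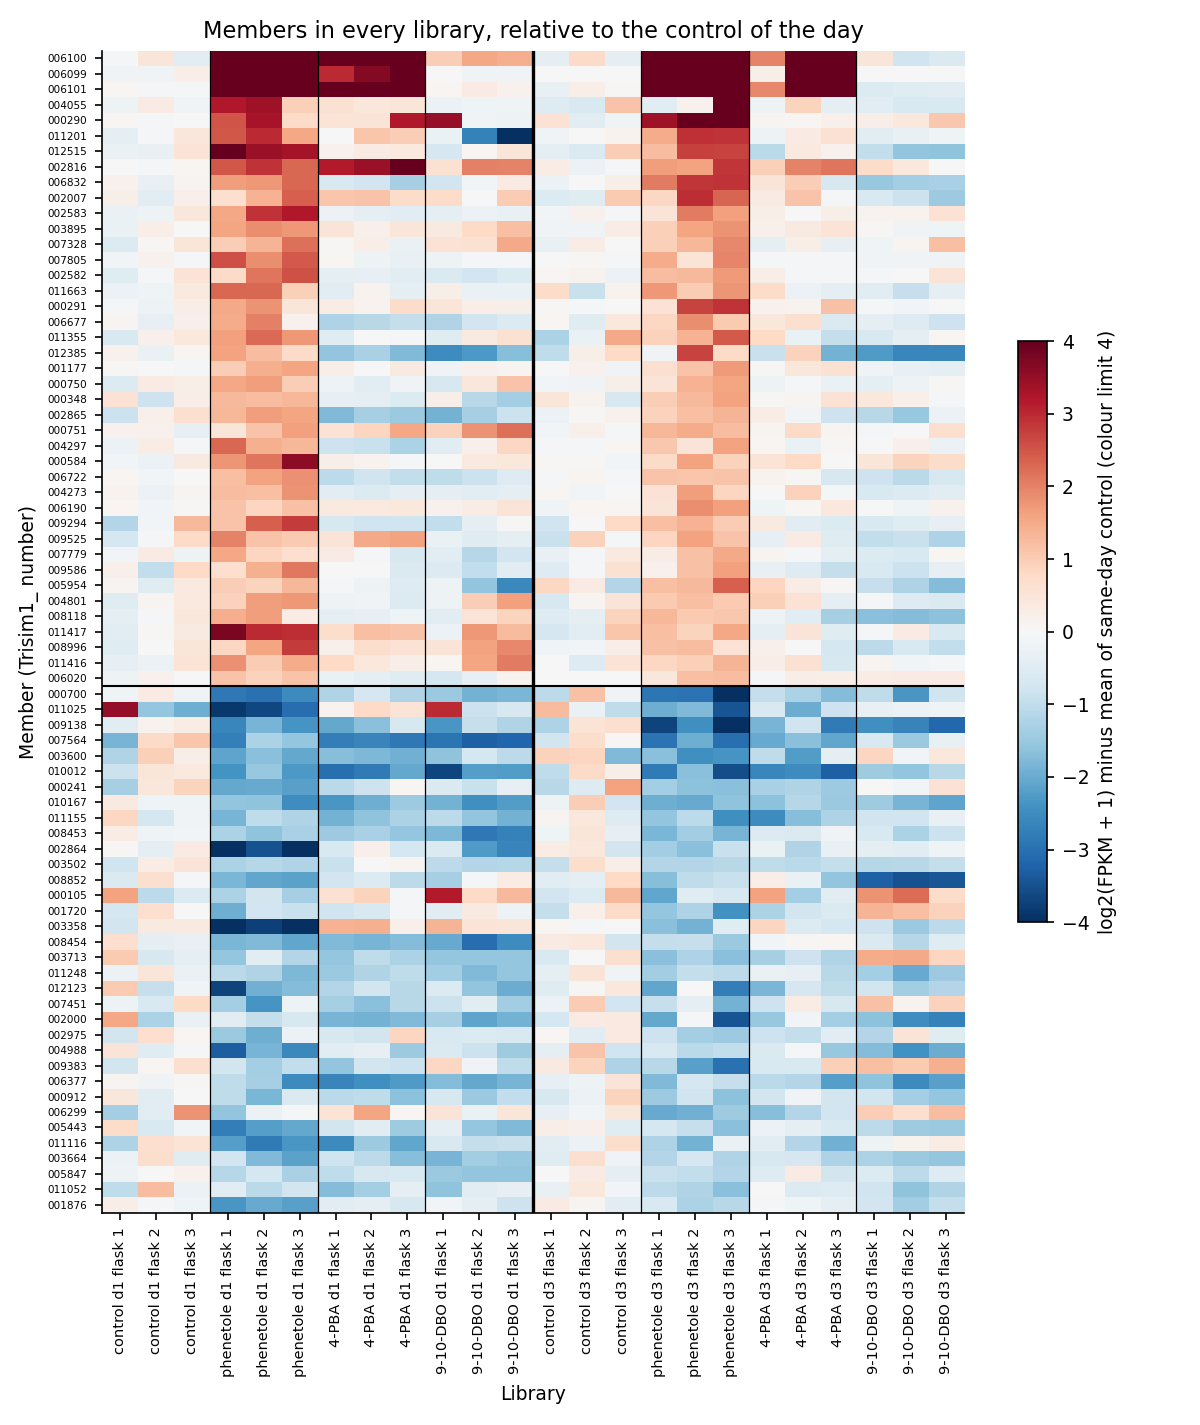
Level of each of the 75 members (rows, higher members above the line and lower members under it, in order of the smaller difference) in each of the 24 libraries (columns), as log2(FPKM + 1) minus the mean of the control of the same day, with colours cut at 4 and -4. The columns of phenetole are mostly red above and blue below the line at both days, and the lower members are also blue in many columns of the other compounds.

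Comparisons of the other compounds with the control use the same control libraries that chose the members, so they are given side by side as a description. At day 1, 5 higher members were called higher with 4-PBA and 4 lower, where edgeR called 10.5% of all loci higher and 13.4% lower, and of the lower members 0 were called higher and 15 lower. With 9-10-DBO at day 1, 6 higher members were called higher and 3 lower, beside 14.9% and 16.9% of loci, and 16 lower members were called lower and 0 higher. The higher members thus had medians near those of all loci, -0.08 with 4-PBA and 0.003 with 9-10-DBO against -0.02 and -0.002, while the lower members had medians of -1.45 and -1.44.

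At day 3 the counts with 4-PBA were small, 2 higher members called higher and 1 lower member called lower, beside 0.0369% of loci in each direction. With 9-10-DBO 9 of the higher members were called lower and 0 higher, beside 10.8% and 5.24% of loci, and 14 lower members were called lower. The medians of the higher members were 0.16 with 4-PBA and -0.69 with 9-10-DBO, and those of the lower members -1.15 and -1.096, where all loci had 0.02 and -0.02. The 23 calls with 9-10-DBO at day 3 became 13 when its flask 2 was left out and 12 without control flask 2, and the 3 calls with 4-PBA became 7 without control flask 1 and 1 without control flask 3.

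By the rule for named genes, the largest called changes with 4-PBA were those of Trisim1_006100 and Trisim1_006101, at log2 9.48 ± 1.18 and 8.19 ± 0.83 (SE) at day 1 and 7.11 ± 1.04 and 5.53 ± 0.72 at day 3. Downward, Trisim1_003713 and Trisim1_007564 changed by -3.41 ± 1.09 and -3.37 ± 0.59 at day 1, and Trisim1_010012 by -3.29 ± 0.62 at day 3. Of these calls, that of Trisim1_003713 was lost under 4 of 11 alternatives, those of Trisim1_006100, Trisim1_006101 and Trisim1_010012 at day 3 under 2, 1 and 6, and the others under 0. The estimates for 9-10-DBO at day 1 were 5.47 ± 0.97 for Trisim1_002816, 1.77 ± 0.35 for Trisim1_000751 and -3.96 ± 0.98 for Trisim1_003502. Trisim1_003713 had 0 counts with 9-10-DBO at day 1 against 85 in the control, at least 35.2-fold lower with 3 counts over the group as the floor. Of the 85 counts, control flask 1 held 65 and the other flasks 10 each, so this bound rests largely on flask 1. At day 3 Trisim1_003664 and Trisim1_003502 changed by -4.63 ± 0.97 and -4.45 ± 1.03 with 9-10-DBO.

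The comparison of 4-PBA with 9-10-DBO used no library that chose the members, although dose and share of solvent differed between these cultures. At day 1 edgeR called 8 of 10842 loci, 0.0646% higher with 4-PBA and 0.00922% lower, and 3 members were among them, Trisim1_006099, Trisim1_006100 and Trisim1_006101, all higher with 4-PBA. Trisim1_006101 was higher by log2 7.21 ± 0.78 (adjusted p = 7.89e-05), a ratio of pooled counts of 148, and Trisim1_006100 by 6.97 ± 0.98 (adjusted p = 0.003004). For Trisim1_006099, with 708 counts against 1, the ratio was 688 with a 95% counting interval of 123 to 27198 (edgeR adjusted p = 0.0369). Its call was lost under 6 of 11 alternatives, with edgeR, DESeq2 or limma adjusted p of 1.60e-04 to 0.306. The count of 3 became 7 without 9-10-DBO flask 1 and 1 without its flask 2 or its flask 3. Of the 34 lower members edgeR called 0 at day 1, with 7 at an unadjusted p under 0.05, and DESeq2 called 7 members of both sets.

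At day 3, 14 of the 41 higher members were higher with 4-PBA than with 9-10-DBO and 0 were lower, beside 10.7% and 9.02% of all loci, and the median of the higher members was 0.79 against 0.06 for all loci. Among them were again the 3 consecutive genes. Trisim1_006101 differed by 8.72 ± 0.89 (edgeR adjusted p = 2.82e-05), a ratio of 437, and Trisim1_006100 by 7.86 ± 1.11 (edgeR adjusted p = 5.01e-04), a ratio of 236. For Trisim1_006099 the 9-10-DBO flasks held 0 counts (edgeR adjusted p = 0.00311). The other 11 were Trisim1_012515, Trisim1_002816, Trisim1_006832, Trisim1_002007, Trisim1_012385, Trisim1_001177, Trisim1_006722, Trisim1_004273, Trisim1_009525, Trisim1_005954 and Trisim1_008118. For these the estimates ran from 0.79 to 2.83.

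The lower members were called in both directions: 5 were higher and 3 lower with 4-PBA, with a median of 0.28. These are 14.7% and 8.82% of the 34, near the 10.7% and 9.02% of all loci. Trisim1_008852, Trisim1_011248, Trisim1_004988, Trisim1_003664 and Trisim1_001876 were the 5. Trisim1_003713 differed between 4-PBA and 9-10-DBO by log2 -3.80 ± 1.03 (edgeR adjusted p = 0.0163), at 0.252, 0.78 and 0.381 FPKM against 7.81, 8.17 and 4.8, and Trisim1_001720 by -2.33 ± 0.72 (edgeR adjusted p = 0.0274). Their calls were lost under 1 of 11 and 5 of 11 alternatives, with adjusted p by edgeR, DESeq2 or limma of 5.09e-04 to 0.0774 and 0.00233 to 0.118. Every 4-PBA flask lay below every 9-10-DBO flask for Trisim1_003713. The remaining member was Trisim1_006299, at 34.3, 50.4 and 67.1 FPKM with 4-PBA and 226, 182 and 268 with 9-10-DBO. The 22 calls in all became 11 without 4-PBA flask 1, 8 without 4-PBA flask 2, 7 without 9-10-DBO flask 2 and 9 without 9-10-DBO flask 3. Both days gave 3 members called higher with 4-PBA, the consecutive genes, beside 0.0461% of loci, and 0 called lower.

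Between day 1 and day 3 few members were called with 4-PBA. Of the higher members 1, Trisim1_006722, was called higher at day 3 (log2 1.06 ± 0.23, edgeR adjusted p = 0.0197), from 252, 302 and 264 to 667, 624 and 389 FPKM, and 0 were called lower, beside 1.82% and 1.22% of loci. Of the lower members Trisim1_008454 was higher by 1.57 ± 0.37 (edgeR adjusted p = 0.0258), from 5.44, 4.93 and 5.58 to 14.4, 16.1 and 16.6 FPKM, and Trisim1_003358 changed by -1.66 ± 0.45 (edgeR adjusted p = 0.0487). The flasks of the days did not overlap for Trisim1_006722 and Trisim1_008454, whereas Trisim1_003358 was at 539, 552 and 239 FPKM at day 1 and 243, 90.6 and 81.9 at day 3, where flask 1 of day 3 exceeded flask 3 of day 1. The calls of Trisim1_006722, Trisim1_008454 and Trisim1_003358 were lost under 5, 5 and 6 of 11 alternatives. These 3 calls became 0 without flask 1 or flask 2 of day 1 or flask 2 of day 3, and 1 without flask 3 of either day.

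With 9-10-DBO the same interval gave calls in 1 direction among the higher members. Of the 41, 12 were lower at day 3 and 0 higher, beside 11.7% and 10% of loci, with a median of -1.09 against -0.03 for all loci. Trisim1_012515 led those with 10 or more counts per library at day 1, at log2 -3.31 ± 0.76 (edgeR adjusted p = 0.00443), from 1.76, 3.67 and 5.18 to 0.734, 0.167 and 0.149 FPKM without overlap. Trisim1_006101 fell by 2.58 ± 0.85 (edgeR adjusted p = 0.0352) from values that were already under 1 FPKM. The other 10 were Trisim1_006832, Trisim1_002007, Trisim1_007805, Trisim1_011663, Trisim1_000750, Trisim1_000751, Trisim1_004273, Trisim1_008118, Trisim1_008996 and Trisim1_011416.

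Lower members were called both ways with 9-10-DBO, 7 higher at day 3 and 5 lower, which is 20.6% and 14.7% of the 34, beside 10% and 11.7% of all loci. Trisim1_003713 had 0 counts at day 1 and 231 at day 3, at least 93.4-fold higher (edgeR adjusted p = 8.67e-04), and at day 3 stood at 7.81, 8.17 and 4.8 FPKM, above every control flask of that day. Trisim1_007564 was higher by 2.16 ± 0.56 (edgeR adjusted p = 0.01005), from 5.69, 4.28 and 4.6 to 24, 12.6 and 29.8 FPKM. In the other direction Trisim1_008852 changed by -3.99 ± 0.50 (edgeR adjusted p = 5.49e-05), from 89, 215 and 277 to 13.7, 11.5 and 12 FPKM, with 3 close values at day 3. The 24 calls with 9-10-DBO became 15 without flask 2 of day 3.

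Whether the change between days differed between 4-PBA and 9-10-DBO was tested with an interaction term. It was called for 2 higher members and 1 lower member, all with the change more positive with 4-PBA, beside 0.747% of loci in that direction and 0.756% in the other. Trisim1_006832 was at 28.4, 25.7 and 17.2 FPKM at day 1 and 44.4, 60.8 and 19 at day 3 with 4-PBA, and at 25.7, 40.6 and 56.3 and 10.1, 11.2 and 11.9 with 9-10-DBO, a difference of changes of 2.73 ± 0.50 (edgeR adjusted p = 0.0148). For Trisim1_008852, with 131, 154 and 110.2 and 168, 117 and 46.1 FPKM with 4-PBA, it was 3.75 ± 0.64 (edgeR adjusted p = 0.0148). For Trisim1_004801 it was 3.25 ± 0.80 (edgeR adjusted p = 0.0437), with 1.01, 1.12 and 0.586 and 5.08, 3.76 and 1.43 FPKM with 4-PBA and 1.003, 3.6 and 6.17 and 2.07, 1.23 and 1.1 with 9-10-DBO. Within 9-10-DBO the days of Trisim1_006832 and Trisim1_008852 did not overlap. The call of Trisim1_004801 was lost under 10 of 17 alternatives, with adjusted p by edgeR, DESeq2 or limma of 0.00364 to 0.131. That of Trisim1_008852 was lost under 1 of 17. With flask number as a replicate block 6 members were called. By their correlations the numbers were taken as pairs for the 4-PBA flasks of both days and not for those of 9-10-DBO. The 3 calls became 0 without 4-PBA flask 3 of day 1, 5 without 4-PBA flask 3 of day 3 and 6 without 9-10-DBO flask 1 of day 1.

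**Figure D4:**
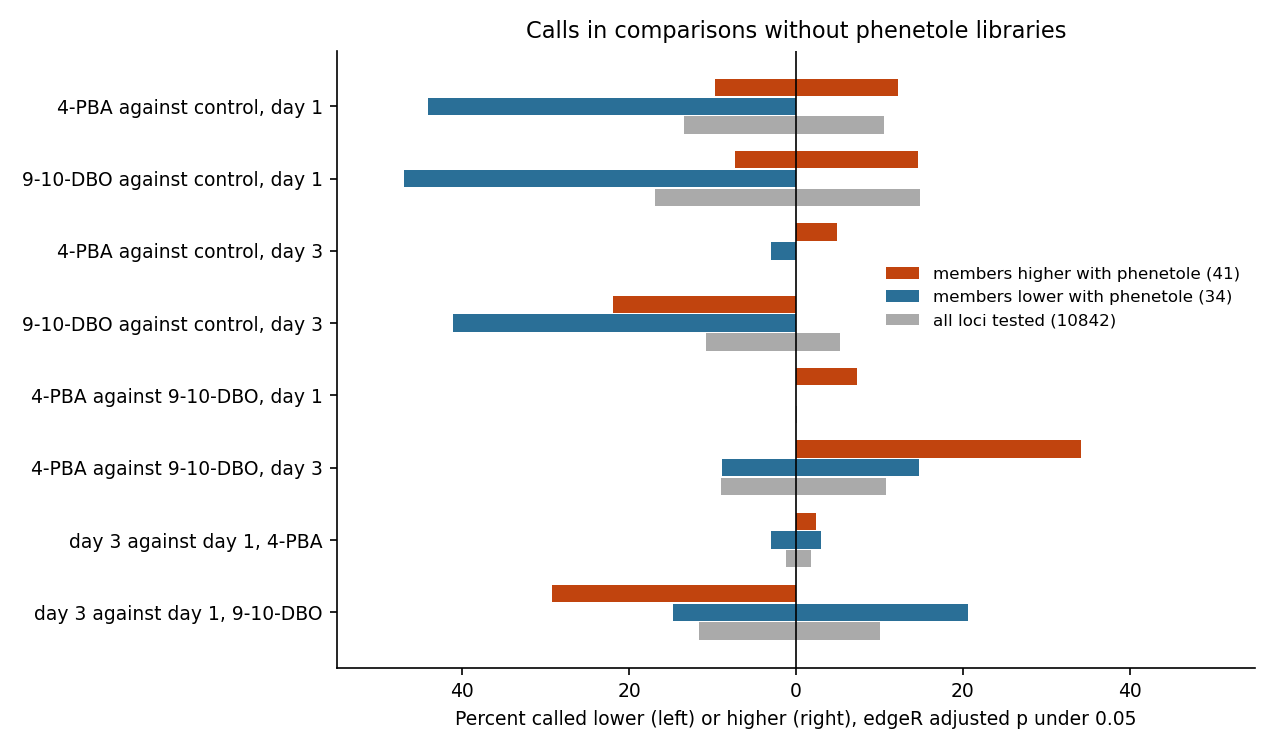
Percent of the 41 higher members, the 34 lower members and all 10842 loci tested that edgeR called lower (bars to the left) or higher (bars to the right) at an adjusted p under 0.05, in 8 comparisons that hold no phenetole library. Grey bars give all loci tested. Blue bars of the lower members reach further left than grey against the control at day 1 and with 9-10-DBO against it at day 3. Those comparisons use the control libraries that chose the members, so nothing is read from that excess. The orange bar reaches 34.1% higher for 4-PBA against 9-10-DBO at day 3.

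Phenetole against the other compounds used the phenetole libraries that chose the members, at a higher dose and without solvent, and is given side by side as a description. Of the higher members 30 were called higher than with 4-PBA at day 1 and 0 lower, beside 23% and 23.5% of loci, and 17 and 0 at day 3, beside 2.08% and 1.68%. Against 9-10-DBO 32 were called higher at day 1 and 38 at day 3, with 0 lower, beside 23.6% and 24.2% of loci at day 1 and 20.1% and 19% at day 3. The lower members were called in both directions, 12 lower and 1 higher than with 4-PBA at day 1, 2 lower and 0 higher at day 3, 10 lower and 3 higher than with 9-10-DBO at day 1, and 11 lower and 3 higher at day 3. The 19 calls against 4-PBA at day 3 became 3 without 4-PBA flask 3, phenetole flask 2 or phenetole flask 3.

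For the 3 consecutive genes no difference between phenetole and 4-PBA passed the threshold, at doses of 200 and 10 mg/L. The estimate for Trisim1_006100 was 1.69 ± 0.75 at day 1 with a 95% interval of 0.13 to 3.25 and 1.96 ± 0.76 at day 3 with 0.38 to 3.53. Trisim1_006101 gave 0.24 ± 0.58 with an interval of -0.97 to 1.45 at day 1 and 2.05 ± 0.60 with 0.79 to 3.30 at day 3, and Trisim1_006099 gave 1.49 ± 0.88 with -0.36 to 3.35 and 2.07 ± 0.90 with 0.18 to 3.96. These intervals leave room for differences of log2 3 and more at day 3, so the cultures are not shown to be alike.

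Other higher members stood apart from 4-PBA. Trisim1_002583 and Trisim1_007805 were higher with phenetole at day 1 by 5.35 ± 0.74 and 4.77 ± 0.65, and at day 3 Trisim1_000290 and Trisim1_007805 by 6.96 ± 1.64 and 5.39 ± 0.72. Among the lower members Trisim1_011025 and Trisim1_003358 changed by -6.12 ± 1.70 and -5.41 ± 0.53 at day 1, and Trisim1_000700 and Trisim1_008453 by -2.00 ± 0.47 and -1.49 ± 0.35 at day 3. At day 3 the calls of Trisim1_000290, Trisim1_007805, Trisim1_000700 and Trisim1_008453 were lost under 6, 1, 4 and 4 of 11 alternatives. Against 9-10-DBO the largest changes of higher members at day 1 were those of Trisim1_006100, 8.66 ± 1.05, and of Trisim1_006099, whose ratio of 1933 against 1 count had a counting interval of 346 to 76416. At day 3 Trisim1_006101 differed by 10.77 ± 0.94 and Trisim1_006099 was at least 454-fold higher. Downward, Trisim1_011025 and Trisim1_003358 changed by -7.22 ± 1.70 and -5.15 ± 0.53 at day 1 and Trisim1_003713 and Trisim1_003600 by -5.83 ± 1.22 and -3.80 ± 0.87 at day 3.

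The share of all counts that the 2 sets made up is given as a description. The higher members took 0.283 ± 0.0614% of all counts in the control at day 1 and 0.644 ± 0.0749% with phenetole (SD, n = 3), and 0.262 ± 0.0267% and 0.797 ± 0.132% at day 3. With 4-PBA they took 0.351 ± 0.00828% and 0.333 ± 0.0279% at days 1 and 3, and with 9-10-DBO 0.301 ± 0.0172% and 0.163 ± 0.0132%. The lower members took 0.374 ± 0.0725% in the control and 0.0681 ± 0.00823% with phenetole at day 1, and 0.371 ± 0.0665% and 0.134 ± 0.0435% at day 3. With 4-PBA the lower members were at 0.252 ± 0.029% and 0.248 ± 0.0625% and with 9-10-DBO at 0.239 ± 0.0228% and 0.122 ± 0.0219%. The median level in log2(FPKM + 1) was 2.59 for the higher and 5.24 for the lower members in the control at day 1, against 3.08 for all gene models. With phenetole at day 1 the medians of the higher and lower members were 5.00 and 2.74. These control and phenetole levels and shares come from the libraries that chose the members. A fall of at least 1 on this scale also needs a control level of at least 1, so nothing is read from their order. Lengths had medians of 1362 bp for the higher members, 1326 bp for the lower and 1467 bp for 11962 gene models.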

How the data were processed

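Poly-A RNA from mycelium was sequenced in 24 libraries. The reads were counted by the authors with featureCounts 1.5.0-p3, per the submitters' processing notes. For the aligner, genome build, annotation and strand setting: not given in the sources used here. Raw counts for 13298 loci, 12486 of them numbered gene models, and FPKM values for the same loci were deposited by the authors. The deposited FPKM equal counts divided by gene length and a library size scaled by a median-of-ratios factor: all 12728 lengths recovered so were whole within 0.01.

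The members were found from the deposited FPKM with a pseudocount of 1 and a threshold of 1; the limit of 300 members was not reached. Members, gene lists and tests were chosen with earlier results of these data known. Counts were tested with edgeR 4.0.16 (limma 3.58.1, R 4.3.3): filterByExpr with a minimum count of 10 over 8 groups, TMM, and a quasi-likelihood fit to all libraries, which share 1 estimate of the spread. P-values are two-sided and adjusted by Benjamini-Hochberg over 10842 loci, and called means under 0.05. Folds are ratios of pooled scaled counts; against 0 counts they are bounds, from a floor of 3 counts per group. Counting intervals are at 95%; they and the floors reflect counting error alone, because PCR copies were not told apart from separate molecules. Alternatives were DESeq2 1.42.0, limma on log2(FPKM + 1), no filter, only the compared groups, the flask number as a block, and each library left out.

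Flasks of the same number deviated together, with correlations of 0.28, 0.15 and 0.36, for 4-PBA between days, and likewise for phenetole and control at day 3 (0.36, 0.16 and 0.24), so these numbers were taken as pairs, with no source for the pairing given in the labels. Numbers were not taken as pairs for 9-10-DBO against control at day 1, with 0.39, 0.09 and 0.48. The same held for 4-PBA against control at day 1, with 0.39, 0.06 and 0.37. The choice went by the lowest of the 3 correlations, and the highest single ones lay in groups not taken as pairs. Phenetole and control flasks of day 3 are different cultures that share only a number. The values in the text are from the fit without the block. Named genes were the first 10 higher and 10 lower members by the smaller difference, runs of at least 3 with numbers at most 2 apart, 3 members on each side of the threshold, and for each comparison the 2 largest called changes each way whose higher group had 10 or more counts in each library. Other genes, among them the pairs with adjoining numbers, were chosen after their values were seen. Gene lists for aromatic degradation and other pathways were not scored, since 0 IDs are paired with a name.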

Additional observations from a re-analysis of the deposited data

Results flagged for a closer look

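The change between days 1 and 3 differed between 4-PBA and 9-10-DBO for 3 members by an interaction term. The difference of log2 changes, 4-PBA minus 9-10-DBO, was 2.73 for Trisim1_006832, 3.75 for Trisim1_008852 and 3.25 for Trisim1_004801, with edgeR adjusted p of 0.0148, 0.0148 and 0.0437. The call of Trisim1_004801 was lost under 10 of 17 alternatives and that of Trisim1_008852 under 1. The 3 calls became 0 without 4-PBA flask 3 of day 1. Trisim1_006832 went from 23.8 ± 5.83 to 41.4 ± 21.1 FPKM (SD, n = 3) with 4-PBA and from 40.9 ± 15.3 to 11.1 ± 0.919 with 9-10-DBO. Trisim1_008852 went from 132 ± 22.1 to 110.4 ± 61.4 and from 194 ± 95.8 to 12.4 ± 1.13, and Trisim1_004801 from 0.904 ± 0.281 to 3.42 ± 1.85 and from 3.59 ± 2.58 to 1.46 ± 0.527.

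Among the 812 loci outside the numbered gene models, 4 met the same rule. Locus 742 of these was at 8.83 ± 6.35 FPKM in the control at day 1 and 86.5 ± 31.3 with phenetole. Its lowest phenetole flask exceeded its highest control flask at day 1, where 26.6% of gene models with a value did not overlap. At day 3 it was at 12.4 ± 10.8 and 32.4 ± 13.3. Its day 3 groups overlapped, with the lowest phenetole flask at 20.3 FPKM and the highest control flask at 24.7. At day 1 it stood at 24.1 ± 4.9 with 4-PBA and 30.2 ± 17.6 with 9-10-DBO. Locus 10 was at 1.35 ± 0.988 FPKM in the control at day 1 and 5.48 ± 2.49 with phenetole, and at 0.437 ± 0.289 and 1.94 ± 0.38 at day 3.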

How the results depend on the processing

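The number of members, 75, was 96 with medians of flasks (51 shared), 102 with a pseudocount of 0.5 (71 shared), 84 from TMM-scaled CPM (69 shared), 73 with FPKM per total counts (56 shared), and 69 to 112 when a library was left out. No named gene changed direction in the settings run, and named genes lost their call in 67 of 496 settings. Counts moved by over 1.5 times in 34 of 166, a score that holds no direction. The 41 higher and 34 lower members became 60 and 36 with medians of flasks and 47 and 37 from TMM-scaled CPM. The numbers were 51 and 51 with a pseudocount of 0.5 and 29 and 44 with FPKM per total counts. Without phenetole flask 2 of day 3 they were 37 and 46, and without control flask 1 of day 3 34 and 36. DESeq2 called 13 members for 4-PBA against control at day 3 (main 3), 7 for 4-PBA against 9-10-DBO at day 1 (main 3), 11 for the days of 4-PBA (main 3), 6 for the difference of day changes (main 3) and 31 for phenetole against 4-PBA at day 3 (main 19). With flask number as a replicate block, 5 were called for 4-PBA against control at day 3 and 6 for the difference of day changes. In the former the samples share only a number, and the latter holds the 4-PBA flasks taken as pairs. The block gave 4 for the days of 4-PBA and 46 for phenetole against control at day 3, where the fit without it gave 3 and 36, and moved no other count by over 1.5 times. With only the compared groups fitted, edgeR called 0 for 4-PBA against control at day 3 (19 at an unadjusted p under 0.05, 13 by DESeq2), 6 for the days of 4-PBA, 9 for the difference of day changes and 0 for phenetole against 4-PBA at day 3 (45 at an unadjusted p under 0.05, 31 by DESeq2). Leaving out 1 library gave 18 to 22 for 4-PBA against control at day 1, 1 to 7 at day 3, 19 to 27 for 9-10-DBO against control at day 1, 12 to 22 at day 3, 1 to 7 for 4-PBA against 9-10-DBO at day 1, 7 to 26 at day 3, 0 to 3 for the days of 4-PBA, 15 to 26 for those of 9-10-DBO and 0 to 6 for their difference. For phenetole it gave 35 to 40 and 3 to 26 against 4-PBA and 38 to 44 and 42 to 50 against 9-10-DBO at days 1 and 3. The cause of these moves was not tested. With 3 flasks a group, members entered and left with single libraries, also where their differences lay far above the threshold. Trisim1_000700, with a smaller difference of 2.81, met the rule in 11 of 12 cases. Genes with few counts had wide intervals.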

Other observations

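The other 2 loci outside the gene models that met the rule were lower with phenetole. Locus 596 was at 7.57 ± 6.42 FPKM (SD, n = 3) in the control and 2.94 ± 1.11 with phenetole at day 1, and at 10.7 ± 1.57 and 1.45 ± 0.0801 at day 3. Locus 805 was at 1.64 ± 0.589 and 0.231 ± 0.3999 at day 1 and at 1.87 ± 1.44 and 0.196 ± 0.339 at day 3.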
